A study of Mus musculus with 9 samples.

Results

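The genes described here encode 35 chromatin remodellers and subunits of remodelling complexes: 16 genes of the SWI/SNF class, 8 of the CHD class, 6 of the ISWI class, 3 of the INO80 class, and Hells and Atrx, which stand outside those classes. Their chromatin was read through ATAC-seq peaks, stretches of 501 bases in which the Tn5 transposase could insert adapters into open DNA. A peak was given to a gene when its centre lay inside the gene, and otherwise to the protein-coding gene with the nearest end, within 50 kb. By that rule 226 of the 75936 peaks in the deposited table belonged to 32 of the 35 genes: 84 peaks to the SWI/SNF class, 87 to the CHD class, 32 to the ISWI class, 14 to the INO80 class and 9 to Hells and Atrx. An assigned peak marks a position near a gene and was not tested as an element that controls it.

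The libraries came from D2A1-d, a mouse breast carcinoma line, labelled wild type in genotype and untreated, and every group was transduced with a hairpin. The groups were a non-targeting control (NTC, n = 3), the Med1 hairpin shMed1 #2 (n = 3) and a second Med1 hairpin, shMed1 #4 (n = 3). MED1 is a subunit of Mediator, the complex that connects transcription factors to RNA polymerase II, and the comparison asks how chromatin accessibility differs in cells that carry a hairpin against it. The labels call the libraries biological replicates and say nothing of separate cultures or clones, so the p-values here rest on the spread among libraries that may be technical.

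Remodellers are ATP-driven machines that slide, evict or exchange nucleosomes. SWI/SNF complexes are built around SMARCA4 or SMARCA2 and open chromatin at enhancers and promoters. CHD proteins carry chromodomains that bind methylated histones, and CHD3 and CHD4 power the repressive NuRD complex. ISWI complexes space nucleosomes evenly, and the INO80 class moves histone variants in and out of nucleosomes. SWI/SNF subunit genes are frequently mutated in carcinomas.

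Values are normalized counts, which are reads per peak divided by a size factor of the library, and all peaks have the same width, so levels of peaks can be compared. Changes are log2 fold changes with limma's standard error, and a peak passed when its Benjamini-Hochberg adjusted p over all 75930 tested peaks was under 0.05. A start-site peak had its centre within 1 kb of an annotated start of its gene. For 7 genes without a strand in the annotation used (Chd1, Chd2, Chd3, Chd7, Smarce1, Arid2 and Baz1a), either end counted, and their peaks are called gene-end peaks. Of the member peaks 40 were start-site or gene-end peaks, 133 lay inside a gene and 53 outside. All 226 passed the filter on low values, with means over the 9 libraries from 27.1 to 5264 normalized counts and a median of 250. The 3 genes with no peak of their own were Smarcd2, a SWI/SNF accessory subunit, Brd9, the bromodomain subunit of the non-canonical BAF complex, and Smarca1, an ISWI ATPase. Beside Brd9 a peak of 1512 normalized counts in NTC was centred 0.116 kb before the start of the gene, at its promoter, but the centre lay inside the neighbour Trip13 and the rule gave the peak to that gene. The nearest peaks to Smarcd2 and Smarca1 lay 16.1 and 20.0 kb away and went to Ddx42 and Ocrl.

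Promoter windows from RefSeq (GRCm38.p6, 250 bases before to 50 after the start) show what kind of DNA lies at annotated starts of these genes. The 3 windows below whose peaks were lower under the hairpins (Chd4, Hells, Smarcd1) and the 3 whose peaks were higher (Chd8, Smarca5, Smarca2) are printed because they lead the results at start sites. Each reads 5′ to 3′ on the strand of its gene. Capitals mark exact matches on either strand to 4 motifs. The GC box was searched as GGGCGG. The CCAAT box of NF-Y was searched as CCATTGG. An AP-1 site was searched as TGANTCA, and the last motif was a YY1 site. Matches of different motifs did not overlap in these windows.
Chd4 (chr6:125095913-125096212, plus strand): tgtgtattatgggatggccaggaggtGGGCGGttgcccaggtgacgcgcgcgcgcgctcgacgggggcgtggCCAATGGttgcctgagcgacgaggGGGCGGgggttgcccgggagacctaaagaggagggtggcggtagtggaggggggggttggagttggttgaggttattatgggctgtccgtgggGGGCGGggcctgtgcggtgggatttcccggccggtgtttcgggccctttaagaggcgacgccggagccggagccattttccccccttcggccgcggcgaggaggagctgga
Hells (chr19:38930740-38931039, plus strand): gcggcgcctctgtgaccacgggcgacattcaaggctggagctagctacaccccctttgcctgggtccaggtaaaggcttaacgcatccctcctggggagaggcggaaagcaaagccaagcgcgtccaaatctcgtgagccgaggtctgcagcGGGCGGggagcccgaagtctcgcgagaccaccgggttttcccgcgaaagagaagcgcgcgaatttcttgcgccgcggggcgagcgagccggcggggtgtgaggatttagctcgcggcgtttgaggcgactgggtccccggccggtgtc
Smarcd1 (chr15:99702037-99702336, plus strand): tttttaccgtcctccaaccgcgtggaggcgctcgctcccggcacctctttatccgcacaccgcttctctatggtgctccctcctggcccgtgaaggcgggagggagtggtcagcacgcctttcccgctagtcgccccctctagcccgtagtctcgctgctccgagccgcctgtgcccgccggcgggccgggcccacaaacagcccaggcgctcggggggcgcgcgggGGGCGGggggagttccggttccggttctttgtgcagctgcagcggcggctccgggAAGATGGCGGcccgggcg
Chd8 (chr14:52257711-52258010, minus strand): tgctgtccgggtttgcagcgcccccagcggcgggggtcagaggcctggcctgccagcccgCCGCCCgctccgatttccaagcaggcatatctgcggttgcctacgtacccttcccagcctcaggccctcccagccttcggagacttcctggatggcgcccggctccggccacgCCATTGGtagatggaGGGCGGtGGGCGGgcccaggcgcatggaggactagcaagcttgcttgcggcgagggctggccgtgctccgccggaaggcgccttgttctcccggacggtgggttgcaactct
Smarca5 (chr8:80739410-80739709, minus strand): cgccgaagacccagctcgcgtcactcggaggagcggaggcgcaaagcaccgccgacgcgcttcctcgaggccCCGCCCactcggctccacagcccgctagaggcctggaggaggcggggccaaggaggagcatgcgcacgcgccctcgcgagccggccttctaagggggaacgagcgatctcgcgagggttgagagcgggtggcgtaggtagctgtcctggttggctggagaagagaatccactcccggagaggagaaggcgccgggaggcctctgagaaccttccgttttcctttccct
Smarca2 (chr19:26604910-26605209, plus strand): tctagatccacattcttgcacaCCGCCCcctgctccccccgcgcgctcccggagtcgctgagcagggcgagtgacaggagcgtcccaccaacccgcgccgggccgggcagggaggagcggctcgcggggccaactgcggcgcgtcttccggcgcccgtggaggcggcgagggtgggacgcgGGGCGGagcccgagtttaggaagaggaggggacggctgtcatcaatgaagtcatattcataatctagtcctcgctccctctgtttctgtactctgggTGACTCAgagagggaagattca
All 6 windows held at least 1 GC box, with 3 in Chd4 and in Chd8, 2 in Smarca2 and 1 in each of the others. A CCAAT box stood in the windows of Chd4 and Chd8, a YY1 match only in that of Smarcd1, and an AP-1 match only in that of Smarca2 among these 6.

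Across the 32 windows found for 28 of the genes, 29 (90.6%) held a GC box, against 46.2% of all 21263 protein-coding windows of the same length. Their median GC content was 66.9%, against 56.3% over all. The other motifs were rare: CACGTG (E-box) in 2 windows against 7.84% of all, AP-1 in 2 against 6.99%, the CCAAT box in 3 against 5.54% and the YY1 letters in 2 against 1.21%. The CRE (TGACGTCA), ETS (CCGGAAGT) and NRF1 letters were in none of the 32, against 2.23%, 5.15% and 1.33% of all windows. Of the 32 windows 23 overlapped a peak assigned to their gene. The GC box stood in 11 of the 12 windows whose peak was lower and in 5 of the 5 whose peak was higher. Windows are not all separate: a pair at Chd4 overlapped, shared the same lower peak and held the same CCAAT box. A pair at Brd9 overlapped too. The median GC content was 67.2% in the windows with a lower peak and 65.7% in those with a higher peak. These matches are letters in a window and were not tested as binding sites.

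Over all member peaks the hairpins moved accessibility both ways in nearly equal numbers. In the mean of both hairpins against NTC 51 member peaks were higher and 49 lower of 226. Over all tested peaks 22.1% were higher and 17.7% lower, so the 226 peaks (22.6% higher, 21.7% lower) were near the background. In bulk libraries a small change in every cell and a larger change in some of the cells cannot be told apart. Against NTC, shMed1 #2 had 50 higher and 42 lower (background 23.6% higher, 19.5% lower), and shMed1 #4 had 42 higher and 33 lower (background 17.3% higher, 12.1% lower). The median log2 fold change of the members was -0.06 with shMed1 #2 and -0.04 with shMed1 #4, against -0.02 and -0.01 over all peaks. Both contrasts share the 3 NTC libraries. Of the 100 peaks past the threshold in the mean, 56 also passed with each hairpin alone, 26 passed only with #2, 15 only with #4, and 3 with neither alone. The matching shares over all peaks were not worked out, so nothing particular to the members is read from these numbers.

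Changes were small. The median size among the 100 called peaks was 0.31 on the log2 scale, a fold of 1.24, and none reached 1. The extremes, named here after their values were seen, were a Brd7 gene-body peak at 0.88 and a Chd1 peak outside the gene at -0.72. Scaling moved the balance. With all libraries brought to equal totals, 38 members were higher and 64 lower, so the share of higher calls went from 51.0% to 37.3%. That scaling moved the whole table. The median log2 fold change went from -0.01 to -0.09 over all peaks and from -0.03 to -0.10 in the members. The share of all peaks called was not worked out under the other scalings, here or below. Without NTC replicate 3, the number of members lower was 31.

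The counts divided by place. At start sites and gene ends 8 member peaks were higher and 18 lower of 40, where the background over all start-site peaks was 14.5% higher and 34.5% lower. Away from start sites 43 were higher and 31 lower of 186, against 23.5% and 14.8% of all such peaks. The start-site peaks thus leaned lower in the members as they did in the whole table. The rises at start sites numbered 5 without NTC replicate 2, 4 with equal totals and 0 with quantile scaling, and the falls were 19 and 21 under those scalings. The falls away from start sites numbered 16 without NTC replicate 3. Scaling moved the balance there too. Away from start sites 34 were higher and 45 lower with equal totals, and 39 higher and 35 lower with quantile scaling.

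**Figure D1:**
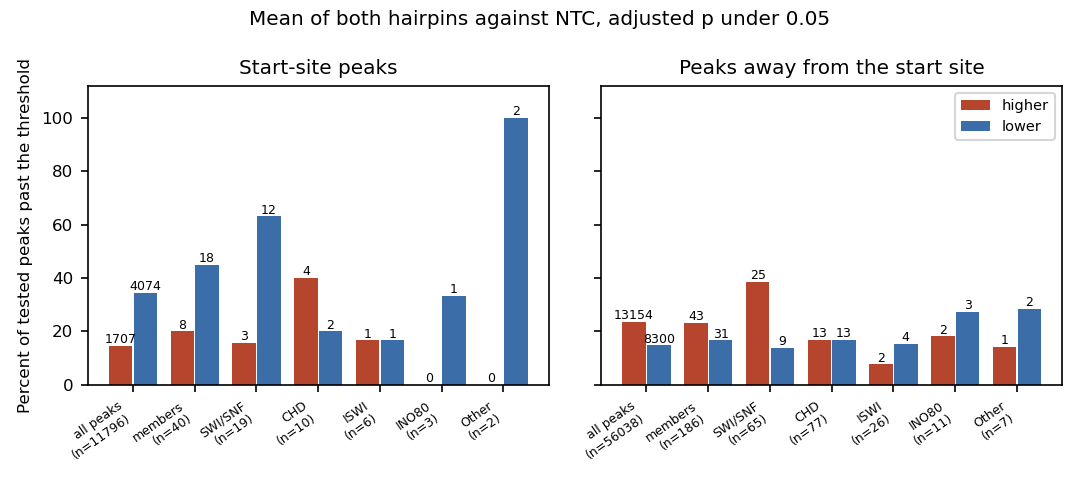
Percent of tested peaks past the adjusted threshold of 0.05 in the mean of both hairpins against NTC, with the number of peaks above each bar, for all peaks assigned to a gene, all members and each class, at start sites (left) and away from them (right). SWI/SNF genes had 12 lower and 3 higher of 19 at start sites, and 25 higher and 9 lower of 65 away from them. Over all start-site peaks 34.5% were lower and 14.5% higher, and over all peaks away from them 23.5% were higher and 14.8% lower.

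The SWI/SNF genes also divided by place. At their start-site peaks 12 were lower (63.2%) and 3 higher (15.8%) of 19, against 34.5% and 14.5% of all start-site peaks. Away from the start site 25 were higher (38.5%) and 9 lower (13.8%) of 65, against 23.5% and 14.8% of all such peaks. Peaks inside the genes carried most of the rises, with 23 higher and 6 lower of 53 (43.4% and 11.3%). Over all peaks inside genes 24.4% were higher and 13.4% lower. The median was 0.15, against 0.02 over all peaks inside genes. The rises were unevenly spread over the class: of the 25 away from start sites, Arid1b held 8 and Arid1a 6. With equal totals, which lowered the median of all peaks as well, 1 was higher and 13 lower at start sites. Away from them 22 were higher and 13 lower. Quantile scaling gave 0 higher and 13 lower, and 23 higher and 10 lower.

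The ATPase gene Smarca4, which encodes BRG1, had a start-site peak of 1100, 1190 and 1258 normalized counts in NTC, 990, 908 and 959 with shMed1 #2, and 998, 1002 and 992 with shMed1 #4. All hairpin libraries lay below all NTC libraries. The change was -0.28 ± 0.05 (limma, adjusted p = 5.25e-05). Smarca2, which encodes the alternative ATPase BRM, went the other way at its start site. It read 3021, 2869 and 2964 in NTC, 3248, 3330 and 3167 with #2, and 3338, 3384 and 3431 with #4, a change of 0.17 ± 0.04 (limma, adjusted p = 0.000194) with no overlap between hairpin and NTC libraries. With quantile scaling the Smarca2 change was 0.02 and did not pass. A peak 143 kb inside Smarca2 fell, from 522 ± 23.9 in NTC to 358 ± 21.8 and 418 ± 24.6 (SD, n = 3), a change of -0.43 ± 0.08.

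The start-site peaks of core and accessory subunit genes were lower at Smarcd1, Smarce1, Smarcc1, Smarcc2 and Smarcb1. Smarcd1, an accessory subunit gene, read 1946, 2053 and 2049 in NTC, 1652, 1585 and 1592 with #2, and 1770, 1722 and 1670 with #4 (-0.28 ± 0.04, limma, adjusted p = 1.4e-06). Its hairpin libraries all lay below NTC. Smarce1, which encodes the HMG-box subunit BAF57, had the largest fall of a start-site or gene-end peak in the class, -0.41 ± 0.06 (limma, adjusted p = 2.15e-07). Its gene-end peak went from 1094, 1190 and 1251 in NTC to 987, 879 and 815 with #2 and 915, 821 and 909 with #4, again without overlap. The scaffold gene Smarcc1 fell from 1501, 1669 and 1549 to 1308, 1252 and 1235, and to 1356, 1346 and 1299 (-0.28 ± 0.05). Its partner Smarcc2, whose start-site peak was its only peak, changed by -0.18 ± 0.06 (limma, adjusted p = 0.0066, or 0.0501 in the fit with no trend, where the prior spread does not vary with the level of a peak). Smarcb1, the core subunit lost in rhabdoid tumours, changed by only -0.13 ± 0.05 at its start site (limma, adjusted p = 0.0392), and that call was lost when any 1 of NTC replicates 2 and 3, shMed1 #2 replicate 2 and shMed1 #4 replicates 2 and 3 was left out (adjusted p from 0.051 to 0.177). The start-site peak of Smarcd3, another accessory subunit, read -0.07 ± 0.05 and did not pass. Dpf2, a BAF subunit that reads histone acetylation, had 1 peak, at its start site, and it did not pass either (-0.01 ± 0.05).

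Among these genes Smarcb1, Smarcd3, Smarcc1 and Smarce1 each had 1 peak inside the gene that rose, while Smarcd1, Smarcc2 and Dpf2 had no peak there. At Smarcb1 a peak 22.5 kb from the start (chr10:75898819-75899320) read 1727, 1466 and 1556 in NTC, 2207, 2427 and 2430 with #2, and 2280, 2286 and 2166 with #4. That change, 0.54 ± 0.05, had the smallest adjusted p of the member peaks in the mean of both hairpins (limma, adjusted p = 1.56e-13). At Smarcd3 a peak 10.1 kb from the start rose from 1341, 1302 and 1306 to 1870, 1919 and 2077, and to 1835, 1956 and 1803 (0.53 ± 0.05, limma, adjusted p = 1.92e-13). At Smarcc1 a peak 30.5 kb inside rose from 961, 987 and 938 to 1230, 1288 and 1431, and to 1504, 1468 and 1521 (0.54 ± 0.05). In each of these peaks every hairpin library stood above every NTC library. Over all classes 10 genes had a fall at their strongest start-site or gene-end peak and a rise at a peak elsewhere. How many of all genes had both was not counted, so nothing is read from this number. In the whole table start-site peaks leaned lower (34.5% lower, 14.5% higher). Peaks assigned away from a start leaned higher (23.5% higher, 14.8% lower).

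The ARID subunits define which SWI/SNF complex forms, with ARID1A and ARID1B in the canonical BAF complex and ARID2 in PBAF. Arid1b had 18 peaks, and both at its starts fell. The stronger read 718, 855 and 900 in NTC, 710, 628 and 526 with #2, and 720, 644 and 768 with #4 (-0.31 ± 0.07, limma, adjusted p = 0.000619). NTC replicate 1 overlapped with #4 here, and the call was lost in the fit with no trend (adjusted p = 0.0636). Of the 16 peaks away from its starts 8 rose, by 0.18 to 0.71, and none fell. Over all such peaks 23.5% were higher and 14.8% lower. A peak 99.8 kb from the start showed the rise most plainly, at 809, 699 and 705 in NTC, 997, 1153 and 1236 with #2, and 1074, 1082 and 993 with #4 (0.56 ± 0.06, limma, adjusted p = 1.75e-10). Another 261 kb away went from 601, 513 and 471 to 762, 898 and 992, and to 835, 682 and 673 (0.60 ± 0.07). These Arid1b peaks were chosen after their values were seen.

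Arid1a had the same arrangement. Both of its start-site peaks fell, with changes of -0.14 ± 0.04 and -0.18 ± 0.05, and 6 of its 7 other peaks rose while 1 fell. The fall of the stronger was lost without NTC replicate 2 or 3 (adjusted p = 0.0665 and 0.0582). The peak that fell inside the gene lay 2.27 kb from a start (-0.26). The rises ran from 0.19 to 0.57. Over all peaks away from start sites 23.5% were higher and 14.8% lower. At Arid2 the gene-end peak at the lower coordinate read 730, 736 and 717 in NTC, 651, 513 and 560 with #2, and 717, 594 and 630 with #4 (-0.26 ± 0.07, limma, adjusted p = 0.00236, or 0.0519 in the fit with no trend). A peak 28.0 kb inside Arid2 read 1421, 1346 and 1274 in NTC, 1763, 1868 and 1895 with #2, and 1910, 1908 and 1895 with #4. This was a rise of 0.48 ± 0.05 with no overlap.

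The other PBAF subunits differed at their starts. Brd7, a bromodomain subunit, was lower (-0.16 ± 0.06, limma, adjusted p = 0.0227), with 1361, 1166 and 1058 under #2 overlapping the 1253, 1338 and 1282 of NTC. Pbrm1, which encodes the polybromo subunit, was higher (0.16 ± 0.06, limma, adjusted p = 0.0321), with 1111, 928 and 896 under #2 overlapping the 819, 893 and 932 of NTC. The Brd7 call was lost without NTC replicate 2 or 3, shMed1 #2 replicate 3 or shMed1 #4 replicate 3 (adjusted p from 0.054 to 0.142). The Pbrm1 call was lost without NTC replicate 1 or 2, shMed1 #2 replicate 1 or shMed1 #4 replicate 1 or 3 (adjusted p from 0.0511 to 0.224), and under both other scalings (0.276 with equal totals, 0.197 with quantile scaling). The start-site peak of Pbrm1 also lay within 1 kb of an end of Gnl3, and the Arid2 gene-end peak within 1 kb of an end of Gm38469. Inside Brd7 a peak 9.21 kb from the start rose from 74.3, 67.3 and 56.5 in NTC to 87.9, 135 and 135 with #2 and 137, 141 and 106 with #4 (0.88 ± 0.15, limma, adjusted p = 6.37e-06). This was the largest rise of any member peak, at a level far under the median of the members.

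**Figure D2:**
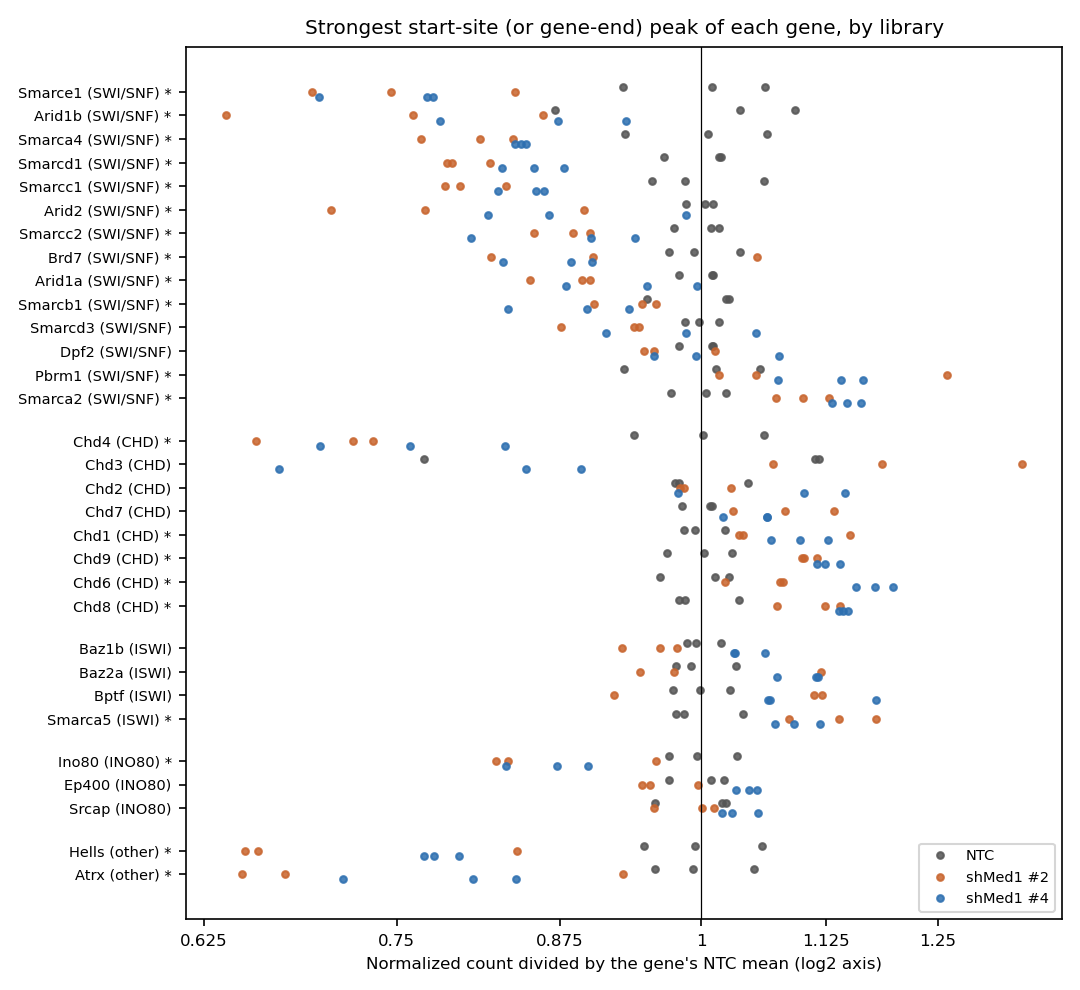
Normalized count of the strongest start-site or gene-end peak of each of 31 genes in each library, divided by the NTC mean of that gene (log2 axis), with a star where the mean of both hairpins passed the threshold. In the SWI/SNF class 10 of 14 genes were lower and 2 higher, and in the CHD class 1 of 8 was lower and 4 higher. Over all start-site peaks, not only the strongest of each gene, 34.5% were lower and 14.5% higher.

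In the CHD class 4 start-site or gene-end peaks were higher and 2 lower of 10, against 14.5% and 34.5% of all start-site peaks. This balance of few peaks depended on the scaling and the hairpin. With equal totals 2 were higher and 2 lower, and with quantile scaling 0 were higher and 2 lower. With #2 alone 2 were higher and 2 lower, and with #4 alone 4 were higher and 1 lower. Of the strongest start-site or gene-end peaks of the 8 genes, 4 were higher, 1 was lower and 3 did not pass. Chd8, a chromatin remodeller gene linked to autism, had a start-site peak of 3362, 3194 and 3176 in NTC, 3485, 3698 and 3646 with #2, and 3707, 3725 and 3696 with #4 (0.17 ± 0.04, limma, adjusted p = 8.82e-05). Chd9, a close relative, read 2984, 2905 and 2806 in NTC, 3232, 3194 and 3188 with #2, and 3256, 3232 and 3304 with #4 (0.16 ± 0.04, limma, adjusted p = 0.000427). Hairpin libraries of both genes lay above all NTC libraries. Chd6 was higher with #4 (3831, 3901 and 3968) than in NTC (3397, 3352 and 3183), while the #2 libraries (3574, 3566 and 3386) overlapped NTC. With the hairpins averaged, Chd6 changed by 0.16 ± 0.04 (limma, adjusted p = 0.000279). Chd1, whose product travels with elongating RNA polymerase II, changed by 0.12 ± 0.04 at a gene end (limma, adjusted p = 0.0209). That call was lost without NTC replicate 1 or 2, shMed1 #2 replicate 1 or shMed1 #4 replicate 2 (adjusted p from 0.0507 to 0.11).

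All 4 rises depended on the scaling. With quantile scaling Chd8, Chd9 and Chd1 read 0.01, 0.02 and 0.02 and Chd6 read -0.00, and none passed. With equal totals Chd9 (0.08) and Chd1 (0.04) did not pass.

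Chd4, the ATPase gene of NuRD, had the largest fall of all member start-site peaks. It read 974, 1102 and 1040 in NTC, 762, 682 and 747 with #2, and 862, 788 and 724 with #4. No hairpin library reached the NTC range, and the change was -0.45 ± 0.06 (limma, adjusted p = 4.77e-08). A weaker peak inside Chd4 also fell (-0.42 ± 0.12). At Chd3, the other NuRD ATPase gene, changes went in opposite directions within a few kb. A peak inside the gene, 4.39 kb from an end, rose from 494, 477 and 481 to 563, 541 and 576, and to 673, 661 and 767 (0.37 ± 0.07). A neighbour 2.98 kb from that end fell from 1133, 1279 and 1243 to 980, 939 and 874, and to 1108, 972 and 1017 (-0.31 ± 0.06). Outside the gene, 6.37 kb from the end, a peak rose from 192, 198 and 182 to 302, 355 and 299, and to 341, 324 and 343 (0.78 ± 0.09, limma, adjusted p = 7.38e-10). That was the largest rise in the class.

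Chd9 had the most peaks of any member, 23, and showed both directions along the locus. Away from its starts 5 of 22 were higher and 4 lower, near the 23.5% higher and 14.8% lower of all such peaks. A peak 40.6 kb inside read 1210, 1155 and 1218 in NTC, 1648, 1772 and 1590 with #2, and 1695, 1653 and 1717 with #4 (0.49 ± 0.05, limma, adjusted p = 5.96e-12), with no overlap between hairpin and NTC libraries. A pair of peaks outside the gene fell. The one 34.4 kb before the start went from 233, 245 and 254 to 167, 138 and 178, and to 194, 184 and 168 (-0.51 ± 0.11), and the other, 32.9 kb before it, changed by -0.40 ± 0.08.

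**Figure D3:**
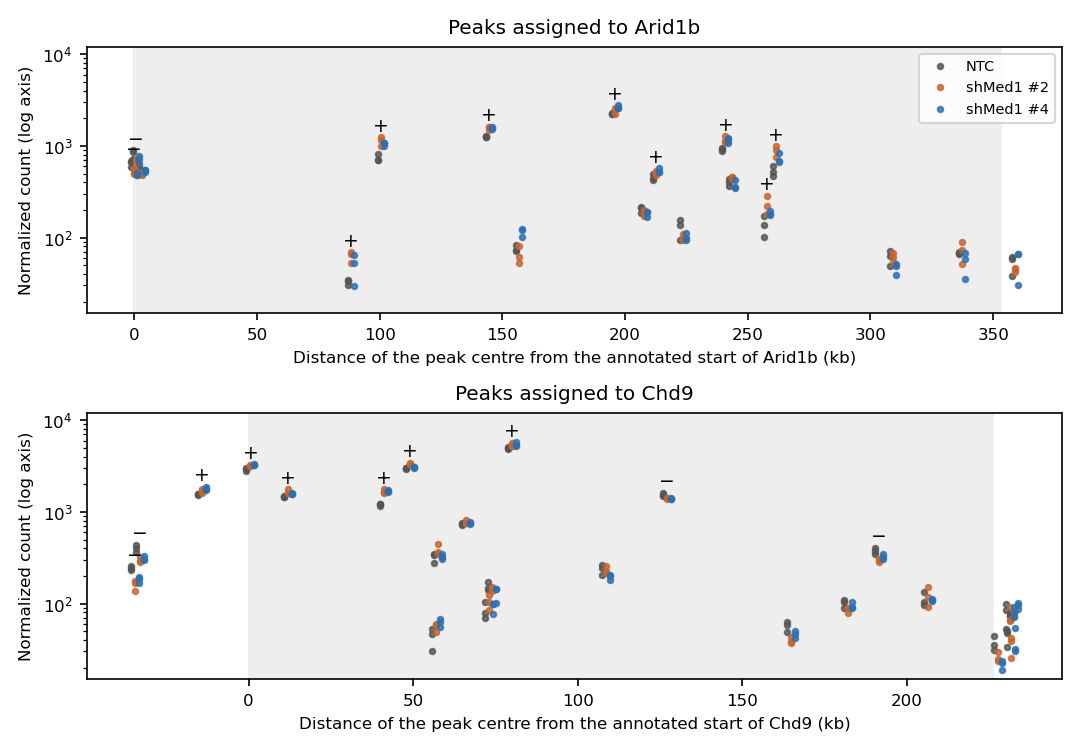
Normalized counts (log axis) of every peak assigned to Arid1b and Chd9 in each library, by distance of the peak centre from the annotated start in kb, with the gene shaded and the groups set slightly apart sideways. A plus or minus marks a peak past the threshold in the mean of both hairpins: 8 plus and 2 minus marks at Arid1b, and 6 plus and 4 minus marks at Chd9. Over all peaks 22.1% were higher and 17.7% lower.

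Chd2 had 5 of its 15 peaks lower and 1 higher in the mean of both hairpins, where 17.7% of all peaks were lower and 22.1% higher. The hairpins differed here. With #2 alone 6 were lower and 1 higher, and with #4 alone 2 were lower and 1 higher. In #4 against #2, 3 Chd2 peaks were higher and 1 lower. Its gene-end peak at the upper coordinate went from 581, 585 and 597 in NTC to 473, 442 and 398 with #2 and 479, 533 and 555 with #4 (-0.30 ± 0.07), without overlap. The gene-end peak at the lower coordinate, at 682 ± 26.8, 680 ± 18.3 and 733 ± 59.1 (SD, n = 3), did not pass. The rise at Chd2 was a peak outside the gene, 46.9 kb from an end, at 1113, 1065 and 1153 in NTC, 1475, 1437 and 1452 with #2, and 1396, 1206 and 1212 with #4 (0.29 ± 0.05). Chd7, whose loss causes CHARGE syndrome, had 4 peaks higher and 1 lower of 14, and its gene-end peak did not pass (0.09 ± 0.06). At Chd1 a weak peak 14.6 kb outside the gene fell from 71.6, 67.3 and 93.9 to 57.1, 43.8 and 33.7, and to 52.2, 45.0 and 49.0 (-0.72 ± 0.20, limma, adjusted p = 0.00374). The Chd7 and Chd2 peaks lie close to the 50 kb limit of the assignment. The last member inside it was a Chd7 peak 49.0 kb away, at means of 282, 418 and 250 in NTC, #2 and #4. The first peak beyond the limit, 52.9 kb from an end of Chd1, had means of 64.9, 52.1 and 70.6.

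In the ISWI class 3 peaks were higher and 5 lower of 32 (9.38% and 15.6%, against 22.1% and 17.7% of all peaks). The median level of these peaks was 137 normalized counts, against 206 over all peaks. A bearing of level on the number of calls was not tested. The start-site peak of Smarca5, which encodes the ISWI ATPase SNF2H, was the strongest start-site peak of all members. It read 4992, 4721 and 4686 in NTC, 5661, 5464 and 5212 with #2, and 5367, 5240 and 5143 with #4, a change of 0.16 ± 0.03 (limma, adjusted p = 0.000119) with no overlap. Its sign was not stable: with quantile scaling it read -0.09 and passed as lower (limma, adjusted p = 0.0128). In the fit with no trend the rise did not pass (adjusted p = 0.052). The strongest start-site peaks of Baz1b, Baz2a and Bptf, which encode partner subunits of ISWI ATPases, read -0.00 ± 0.04, 0.08 ± 0.05 and 0.10 ± 0.06, and none passed. A second Bptf peak, 0.858 kb from the start, was lower (-0.24 ± 0.08, limma, adjusted p = 0.0192), a call lost without NTC replicate 1 or 2 or shMed1 #2 replicate 2 (adjusted p from 0.0639 to 0.0853).

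Away from the starts 2 ISWI peaks were higher and 4 lower of 26 (7.69% and 15.4%, against 23.5% and 14.8% of all such peaks). Inside Baz2a, the gene of the NoRC subunit TIP5, a peak 4.11 kb from the start fell from 1037, 1065 and 1064 to 894, 799 and 877, and to 872, 851 and 842 (-0.30 ± 0.06, limma, adjusted p = 2.02e-05). Both hairpins lay below NTC in every library. Baz1a, the gene of the ACF subunit, had no gene-end peak. A peak 15.1 kb inside it rose from 1290, 1368 and 1259 to 1663, 1576 and 1617, and to 1492, 1553 and 1424 (0.25 ± 0.05, limma, adjusted p = 3.61e-05). Another, 29.3 kb from the end, was lower (-0.19 ± 0.06), although its NTC libraries, at 834, 932 and 1024, overlapped both hairpins, and the call was lost without NTC replicate 2 or 3 (adjusted p = 0.0577 and 0.21). Baz1b had 5 peaks and none passed.

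In the INO80 class 2 peaks were higher and 4 lower of 14 (14.3% and 28.6%, against 22.1% and 17.7% of all peaks), a difference of few peaks from which nothing is read. Ino80, the ATPase gene of its complex, fell at the start site from 2163, 2220 and 2305 to 2137, 1858 and 1836, and to 2003, 1853 and 1945 (-0.20 ± 0.05, limma, adjusted p = 0.000355). Both groups lay under the NTC range. A pair of weaker peaks inside Ino80 were lower too, at -0.44 ± 0.14 and -0.43 ± 0.13, though without NTC replicate 3 neither passed (adjusted p = 0.114 and 0.0754), nor did the former without NTC replicate 1 (0.0667). A peak 13.5 kb outside Ino80 rose from 355, 364 and 360 to 506, 578 and 540, and to 409, 437 and 457 (0.43 ± 0.07).

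Ep400, the ATPase gene of the TIP60 complex, was near its control level at the start site, at 2967 ± 79.5 in NTC, 2862 ± 83.1 with #2 and 3098 ± 30.8 with #4 (SD, n = 3). The change, 0.01 ± 0.04, did not pass, but with quantile scaling it read -0.14 and did (limma, adjusted p = 0.00142). A peak 66.7 kb inside Ep400 rose from 546, 489 and 458 to 812, 967 and 1045 with #2 and 684, 698 and 642 with #4 (0.68 ± 0.07, limma, adjusted p = 2.71e-11). Srcap, whose product loads the histone variant H2A.Z, had 2 peaks and neither passed. Its start-site peak stood at 1860 ± 69.2, 1840 ± 54.7 and 1924 ± 33.7 (SD, n = 3), a change of 0.02 ± 0.04.

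Hells and Atrx both fell at their start sites. Hells, which encodes a SNF2-family protein needed for DNA methylation, went from 950, 1063 and 997 in NTC to 843, 652 and 660 with #2 and 798, 779 and 772 with #4 (-0.42 ± 0.06, limma, adjusted p = 6.13e-07). Atrx, whose product places a histone variant at repeats and telomeres, went from 781, 753 and 827 to 731, 531 and 510, and to 634, 661 and 561 (-0.39 ± 0.08, limma, adjusted p = 4.62e-05). No hairpin library reached the NTC range in either gene. Inside Atrx a peak 37.4 kb from the start also fell (-0.47 ± 0.10). The peak of Hells that rose lay outside the gene, at 1370, 1287 and 1266 in NTC, 1437, 1661 and 1656 with #2, and 1614, 1745 and 1616 with #4 (0.31 ± 0.05).

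Start-site rises and falls came at different levels of accessibility. Of the 6 member start-site peaks with a mean over the 9 libraries of at least 2500 normalized counts, 5 were higher and 0 lower. Of the 12 between 500 and 1000, 1 was higher and 8 were lower, and of the 16 between 1000 and 2500, 1 was higher and 9 were lower. The same division ran through the whole table. Among all start-site peaks of at least 2500, 44.6% were higher and 14.1% lower, while between 500 and 1000 it was 6.93% higher and 49.2% lower. These levels were set after the values were seen. Quantile scaling, which gives all libraries the same distribution of values, left none of the member start-site rises past the threshold.

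**Figure D4:**
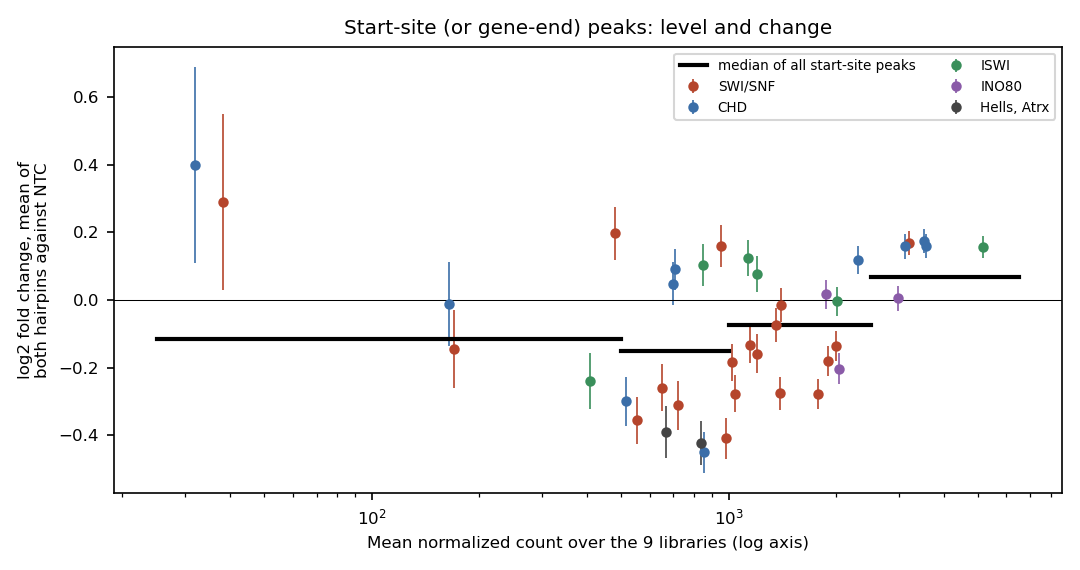
Log2 fold change of the 40 member start-site or gene-end peaks in the mean of both hairpins against NTC, with limma's standard error, against their mean normalized count over the 9 libraries (log axis), coloured by class. Black bars give the median of all start-site peaks in 4 ranges of level, from -0.15 between 500 and 1000 to 0.07 above 2500, and the 6 strongest member peaks all lie at or above 0.

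The hairpins differed from each other at 35 member peaks, 16 higher and 19 lower with #4 than with #2, against 8.48% higher and 13% lower over all peaks. Without shMed1 #2 replicate 2, or without shMed1 #4 replicate 3, 8 were higher. The largest difference by adjusted p was inside Arid1a, 66.7 kb from a start. That peak read 942, 920 and 858 in NTC, 1580, 1509 and 1613 with #2, and 976, 1087 and 1009 with #4, so that the #2 libraries stood apart from both other groups (#4 against #2, -0.61 ± 0.06, limma, adjusted p = 6.59e-11). A Brd7 peak 21.7 kb inside behaved alike, at 1398, 1274 and 1336 in NTC, 1987, 1941 and 1965 with #2, and 1575, 1544 and 1572 with #4 (-0.33 ± 0.05).

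The outermost Chd7 peak went up only with #2, at 286, 283 and 277 in NTC, 479, 342 and 432 with #2, and 294, 259 and 196 with #4 (#4 against #2, -0.75 ± 0.11, limma, adjusted p = 1.77e-06). Of the 5 Chd7 peaks that lay 38.5 to 49.0 kb from the gene, 4 were lower with #4 than with #2. Over all peaks outside genes 15.1% were. This range was set after the values were seen, and these neighbouring peaks were not tested as independent. In the other direction, a weak Arid1b peak 156 kb inside read 71, 83 and 74 in NTC, 53, 81 and 62 with #2, and 125, 120 and 101 with #4 (0.84 ± 0.19). The Arid2 gene-end peak at the upper coordinate read 460, 408 and 435, then 378, 445 and 493, then 537, 639 and 537 (0.38 ± 0.09, limma, adjusted p = 0.00116). In both the #4 libraries lay above all others.

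**Figure D5:**
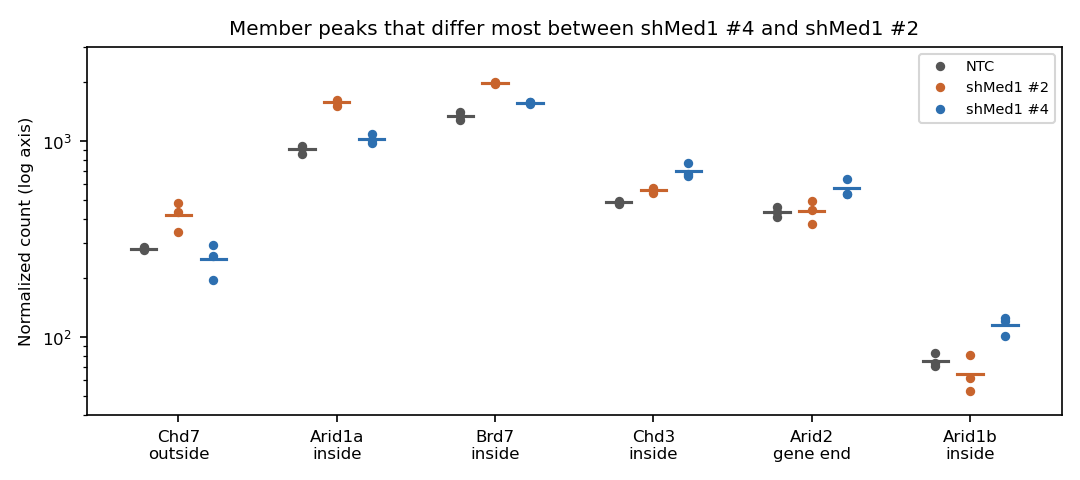
Normalized count (log axis) in each library for the 3 lower and 3 higher member peaks with the smallest adjusted p in #4 against #2, with a bar at each group mean. At Chd7, Arid1a and Brd7 the #2 libraries stand above both other groups, and at Chd3, Arid2 and Arid1b the #4 libraries do.

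A separate list held 65 genes, further subunits of these complexes and other genes of the SNF2 family, with 268 peaks in 63 genes. Of these peaks 51 were higher and 72 lower in the mean of both hairpins (19.0% and 26.9%, against 22.1% and 17.7% of all peaks). Their median was -0.06. At start sites or gene ends 10 were higher and 33 lower of 68 (14.7% and 48.5%, against 14.5% and 34.5% of all such peaks). Away from them 41 were higher and 39 lower of 200 (20.5% and 19.5%, against 23.5% and 14.8%). Subunits of the INO80, SRCAP and TIP60 complexes made up 98 of the 268 peaks, with 11 higher (11.2%), 35 lower (35.7%) and a median of -0.13. The counts of single complexes were not split by place. The SWI/SNF subunits on that list had 10 higher and 14 lower of 52 (19.2% and 26.9%). The CHD and NuRD subunits had 15 higher and 11 lower of 65 (23.1% and 16.9%), near the share over all peaks. The ISWI subunits had 5 higher and 5 lower of 18 (27.8% and 27.8%). The other SNF2-family genes had 10 higher and 7 lower of 35 (28.6% and 20%). With equal totals, which lowered the median of all peaks as well, the list stood at 33 higher and 99 lower.

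The libraries held 34.8 to 53.7 M reads in peaks, and the member peaks held 15 to 6444 reads per library. Totals of normalized counts were 41.2 to 41.5 M in NTC and 43.1 to 44.2 M with the hairpins. The targeted gene had a start-site peak at 2114 ± 41.3, 2023 ± 143 and 1971 ± 73.1 (SD, n = 3), whose change did not pass (-0.08 ± 0.04, limma, adjusted p = 0.132). A hairpin acts on the transcript, so this does not measure the knockdown. Of the 5 mesenchymal markers, Vim and Fn1 had strong start-site peaks (4492 and 3215), Zeb2 and Zeb1 had weaker ones (1007 and 234) and Cdh2 had none. The epithelial genes Cdh1, Epcam, Krt5 and Krt8 had no start-site peak and Krt18 and Krt14 had weak peaks (168 and 120). Among the blood markers reported, Spi1 and Lyz2 had start-site peaks (703 and 87.2) and Ptprc and Cd3e had none. A start-site peak was found for 1 of 4 endothelial markers (Cdh5 111).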

How the data were processed

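ATAC-seq was run on 9 libraries of D2A1-d cells. Per the labels' protocols, tagmentation used Nextera transposase (1 h, 37 °C). The submitters' processing notes name Trim Galore, BWA, MACS2, featureCounts and Subread, with mm10 as the build. Whether duplicates were removed or insertions shifted, and how peaks were merged, is not given in the sources used. Each deposited value is the signal of a peak, called a DESeq2-normalized count by the authors: reads divided by a size factor.

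Values were multiples of 1 step per library (100% within 0.01 of a whole number), from which reads were worked out. The lowest stood for 2 or more reads, so no count model was run. Log2(value + 1) was fitted where the mean over libraries reached 10 (75930 peaks kept, 6 removed) in limma 3.58.1 (R 4.3.3, pandas 2.3.3) with trend and 3 group means. Tests were two-sided and adjusted over all peaks at 0.05. A fold change on this scale understates the change of low peaks. Genes and strands came from RefSeq on GRCm38.p6, and coordinates are printed as deposited. The fit was tested on simulated data.

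All 35 genes are accounted for by their strongest start-site peak, and by up to 4 higher and 4 lower peaks per class with the smallest adjusted p. Up to 3 each way were named for #4 against #2. Other named peaks were chosen after their values were seen. The members and lists were chosen with earlier results of these data known. Alternatives changed the scaling, pseudocount, filter, trend, weights, assignment and libraries used. Same-numbered libraries did not deviate together (9 pairs, r of deviations from group means -0.084 to 0.033). The value of 1 blood marker gene is not reported here.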

Additional observations from a re-analysis of the deposited data

Results flagged for a closer look

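At 14 of the peaks named above, shMed1 #4 and shMed1 #2 differed from each other past the threshold (limma, #4 against #2, log2). Lower with #4 were the outermost Chd7 peak (-0.75), the Arid1a peak 66.7 kb from a start (-0.61), the weak Chd3 gene-end peak (-0.58), the Ep400 gene-body peak (-0.47), the Brd7 gene-body peak (-0.33), the Ino80 peak outside the gene (-0.32) and the Chd2 peak outside the gene (-0.20). Higher with #4 were the Arid1b peak 156 kb inside (0.84), the upper Arid2 gene-end peak (0.38), the Baz1a peak outside the gene (0.36), a Chd3 gene-body peak (0.32), the Smarcc1 gene-body peak (0.19) and the start-site peaks of Chd6 (0.15) and Ep400 (0.11). At the Chd3 gene end the 2 hairpins stood on opposite sides of NTC, with 164 ± 32.8 in NTC, 198 ± 23.4 with #2 and 132 ± 19.2 with #4 (SD, n = 3), and neither passed against NTC alone. No group had more than 3 libraries, so single libraries were not screened as outliers.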

How the results depend on the processing

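Single recomputed changes mostly held under the alternatives run. Of 1054 recomputed changes of the 62 named peaks, 959 stayed on their side of the threshold, 69 lost the call, 5 gained it and 21 changed sign. Only 28 of the 50 peaks past the threshold stayed so with the same sign throughout. A pseudocount of 10, no filter, a filter at 50 and weights on the worked-out reads each left all 62 the same. Quantile scaling left 48 the same, and the fit with no trend 50. The counts that moved by over 1.5 times follow. With equal totals the members lower with #2 were 69, and the start-site rises were 4; with quantile scaling those rises were 0. In the fit with no trend the members lower with #4 were 19, the members higher in #4 against #2 were 6, and at start sites 4 were higher and 11 lower. With every peak given to the nearest gene end, 28 peaks away from start sites were higher, and within 10 kb 12 members were lower in #4 against #2. Leaving out 1 library at a time, the members lower with #4 ranged from 18 to 35, those lower in the mean from 31 to 53, those higher in #4 against #2 from 8 to 20, the start-site rises from 5 to 8 and the falls away from start sites from 16 to 35.

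Changes of sign were at peaks near 0 or at rises under scaling. With equal totals they were Chd2 (-0.029), Ep400 (-0.072), Srcap (-0.061) and Baz2a (-0.00096) at start sites or gene ends. With quantile scaling they were Chd2 (-0.024), Chd3 (0.026), Chd6 (-0.00368), Ep400 (-0.14), Srcap (-0.058) and Smarca5 (-0.092). Leaving out 1 library at a time gave both signs at Chd3 (-0.19 to 0.079), Ep400 (-0.016 to 0.021), Srcap (-0.014 to 0.034), Baz1b (-0.013 to 0.0094) and Dpf2 (-0.038 to 0.0041). In the fit with no trend the calls at Chd1, Bptf, Smarca5, Arid1a, Arid1b, Arid2, Brd7, Pbrm1, Smarcb1 and Smarcc2 start sites or gene ends and at a peak inside Baz1a were lost (adjusted p from 0.0501 to 0.163). The causes were not tested.

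The same replicate numbers mark no stated pairing, and 0 of the 9 libraries correlated best with a library of its own number. With the replicate block, 51 members were higher and 48 lower in the mean, 50 and 42 with #2, 42 and 30 with #4, and 14 and 19 in #4 against #2; the start-site counts were 8 higher and 17 lower, and those away 43 and 31. The block lost the call of the Smarcb1 start-site peak (adjusted p = 0.0531) and of no other named peak. The weakest member peaks held as few as 15 reads in a library, and at such depth small changes were not detectable.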
